A study of Canis lupus familiaris with 4 samples.

Results

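The T cell costimulation and checkpoint genes described here are the receptors CD28, CTLA4 and CD40 and the ligands CD80 and CD86. They were chosen by name, and a probe was taken where its array annotation is the dog RefSeq mRNA accession of one of them. All 5 genes had such a probe, 8 probes in total, among 925 named dog genes that could be tested. CD28 and CD86 had 1 probe each, and CTLA4, CD80 and CD40 had 2 probes each. The series compared canine mammary tumours of grade 3, the most malignant, with tumours of grade 1. A single slide carried 4 two-colour arrays, and on each of them grade 3 RNA was hybridised against grade 1 RNA. Cy5 marked grade 3 on 2 arrays and grade 1 on 2 arrays, which is a dye swap. The labels are not in accord about the material. Sample names give tumours of a grade, while the protocols describe cultured cancer cells kept with monocytes and then separated from the resulting macrophages by sorting. Which description holds for these RNAs is not settled here. Apart from that culture with monocytes, the labels give no breed, age or treatment for either grade. The labels call the samples biological replicates without naming the tumours or cultures behind each array, so the spread between arrays may be technical. The limma fit held a dye term, which takes up any difference between the dye orientations. A limma p-value here therefore covers the spread between arrays of the same orientation.

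T cells need a second signal beside that of the T cell receptor. CD28 on the T cell supplies it when it binds CD80 or CD86 on an antigen-presenting cell, and CTLA4 binds the same pair of ligands more tightly and restrains the response. CD40 is a receptor of the tumour necrosis factor family on B cells, macrophages and dendritic cells, and its engagement by CD40LG on activated T cells drives NF-kB signalling and raises CD80 and CD86. In mammary tumours these genes are known mainly from infiltrating lymphocytes and myeloid cells. Roles of genes are given here as known from human and mouse.

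CD40, CD86, CTLA4 and CD28 were lower in grade 3 than in grade 1, and CD80 gave different answers with its 2 probes. With their brightest probes CD40 and CD86 fell by 2.02-fold and 1.92-fold, more than the others under the background treatment used here but not with processed signals. CTLA4 was 1.70-fold lower and CD28 1.39-fold lower. The brighter CD80 probe did not pass the test, and the dimmer one was 1.52-fold lower in grade 3. Of the 8 probes, 7 were called lower in grade 3 (limma, threshold 0.05, Benjamini-Hochberg adjustment over 35411 tested probes). When arrays were scaled to spike-in controls, 4 of these 7 lay above 0 without a call (limma adjusted p 0.0585 to 0.985). The brighter CTLA4 probe stayed below 0 there and lost its call (limma adjusted p 0.33). With local backgrounds marked as outliers left as measured, 5 of these 7 calls were lost (adjusted p 0.0612 to 0.145). The same rule called 61.6% of all tested probes, 30.5% lower and 31.1% higher in grade 3. Of the 925 named genes, by their brightest probes, it called 70.2%, and 46.1% were lower. The median log2 fold change of the 8 probes was −0.65, against 0.00454 for all tested probes and −0.09 for the named genes. In RNA from many cells, fewer cells of a type and less RNA per cell cannot be told apart.

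**Figure D1:**
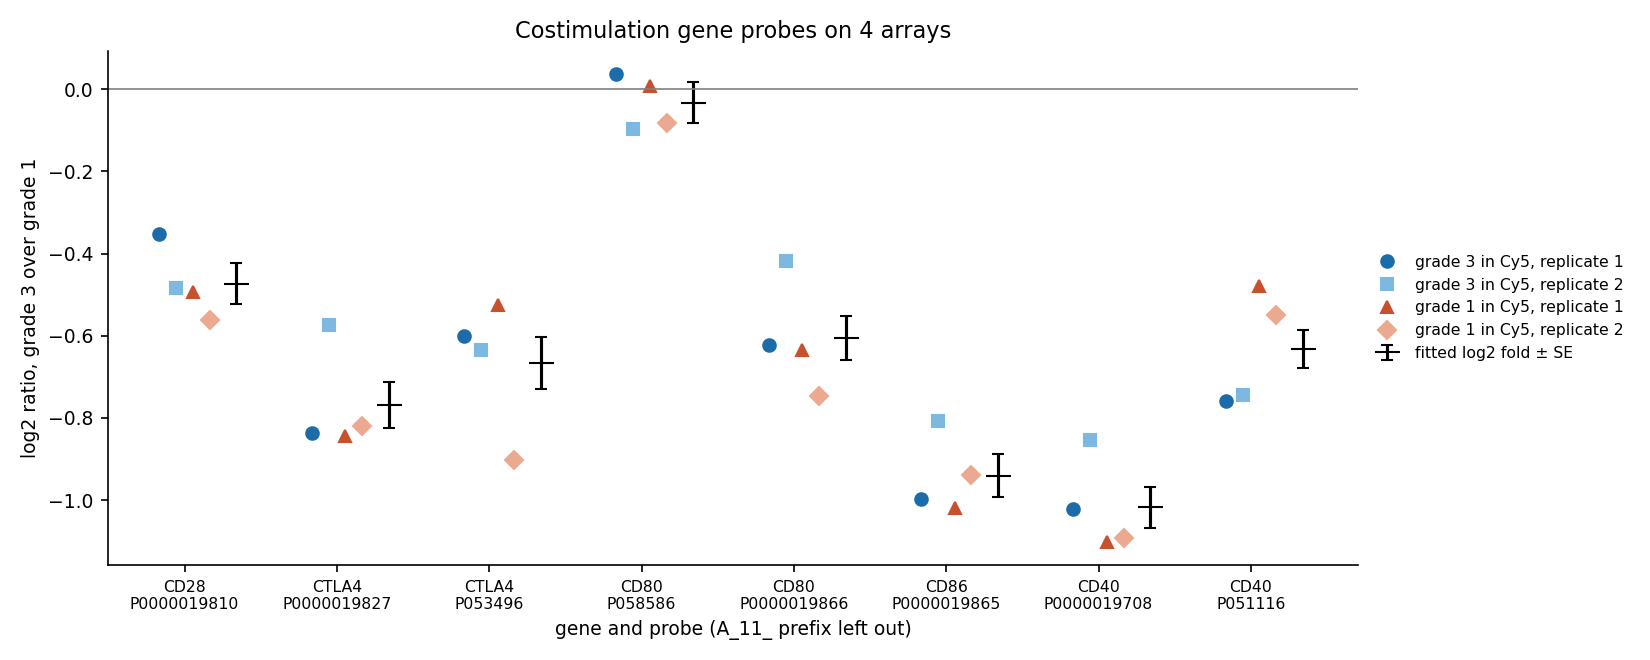
Log2 ratio of grade 3 over grade 1 (vertical axis) for the 8 probes of the 5 genes on each of 4 arrays, with the fitted log2 fold change ± SE in black. All 4 points lie below 0 for 7 probes, from −0.35 to −1.10, while those of CD80 probe A_11_P058586 lie on both sides of 0; with scaling to spike-in controls the fitted value of 4 of the 7 lies above 0.

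The ratio of an array is the log2 of its grade 3 signal over its grade 1 signal after background correction and loess. Loess centres each array on its probes, so a value below 0 means lower in grade 3 relative to those probes. It does not give an absolute amount of RNA. Levels are the log2 intensities of each channel after normalization between channels. They are comparable between grades for 1 probe and not between probes. The study had no unaffected mammary tissue among these arrays, and grade 1 is the comparison for every value.

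CD28, the costimulatory receptor of T cells, was read by probe A_11_P0000019810. The ratios were −0.35 and −0.48 on the arrays with grade 3 in Cy5, and −0.49 and −0.56 on those with grade 1 in Cy5. Levels were 6.56, 6.54, 6.51 and 6.60 in grade 3, against 6.91, 7.02, 7.0 and 7.17 in grade 1, so the grades did not overlap. Mean levels were 6.55 ± 0.04 in grade 3 and 7.03 ± 0.11 in grade 1 (SD, n = 4 arrays). The fitted log2 fold change was −0.47 ± 0.05 (SE), with a 95% interval from −0.58 to −0.36 and a limma adjusted p of 2.21e-05. This was a dim spot: raw signal was 1.88 to 3.35 times the local background in grade 3, and 2.73 to 3.13 times in grade 1, though well above background in both grades on all 4 arrays.

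CTLA4, the inhibitory receptor for the same ligands, had probes A_11_P0000019827 and A_11_P053496. With the first, the ratios were −0.84 and −0.57 with grade 3 in Cy5, and −0.84 and −0.82 with grade 1 in Cy5. Levels were 7.92, 8.26, 7.95 and 8.06 in grade 3, against 8.76, 8.83, 8.80 and 8.88 in grade 1. Every grade 3 level was below every grade 1 level, and 1 array, replicate 2 with grade 3 in Cy5, had a smaller difference than the other 3. The fitted value was −0.77 ± 0.06 (SE), with a 95% interval from −0.89 to −0.64 and a limma adjusted p of 1.75e-06. The second probe gave ratios of −0.60, −0.63, −0.53 and −0.90, and mean levels of 6.59 ± 0.13 in grade 3 and 7.26 ± 0.03 in grade 1 (SD, n = 4). It was 1.59-fold lower in grade 3 (limma adjusted p 1.2e-05). Both probes of CTLA4 therefore fell, and their ratios differed by −0.10 ± 0.20 (SD, first minus second), with 2 arrays on each side of 0 (exact permutation test, p = 0.5).

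CD40, the receptor through which T cells act on antigen-presenting cells, had the largest fitted fall of the 5 genes by brightest probe. Probe A_11_P0000019708 gave ratios of −1.02 and −0.85 with grade 3 in Cy5, and −1.10 and −1.09 with grade 1 in Cy5. Levels were 10.78, 11.08, 10.71 and 10.70 in grade 3, against 11.81, 11.93, 11.81 and 11.79 in grade 1. The lowest grade 1 level lay well above the highest grade 3 level. The fitted value was −1.02 ± 0.05 (SE), with a 95% interval from −1.13 to −0.91 and a limma adjusted p of 1.4e-07. Raw signal was 62.9 to 70.5 times background in grade 3 and 70.3 to 90.5 times in grade 1.

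The second CD40 probe, A_11_P051116, was also lower in grade 3, by 1.55-fold (limma adjusted p 2.14e-06), with mean levels of 8.60 ± 0.10 in grade 3 and 9.23 ± 0.12 in grade 1 (SD, n = 4). Its ratios separated by dye: −0.76 and −0.74 with grade 3 in Cy5, and −0.48 and −0.55 with grade 1 in Cy5. The fall was present in both dye orientations. The brighter probe fell further than the second on all 4 arrays, by −0.38 ± 0.24 (SD). An exact permutation test over 4 arrays gave p = 0.125, the smallest that this design allows, and 0.1875 after adjustment over the 3 genes with a pair of probes.

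**Figure D2:**
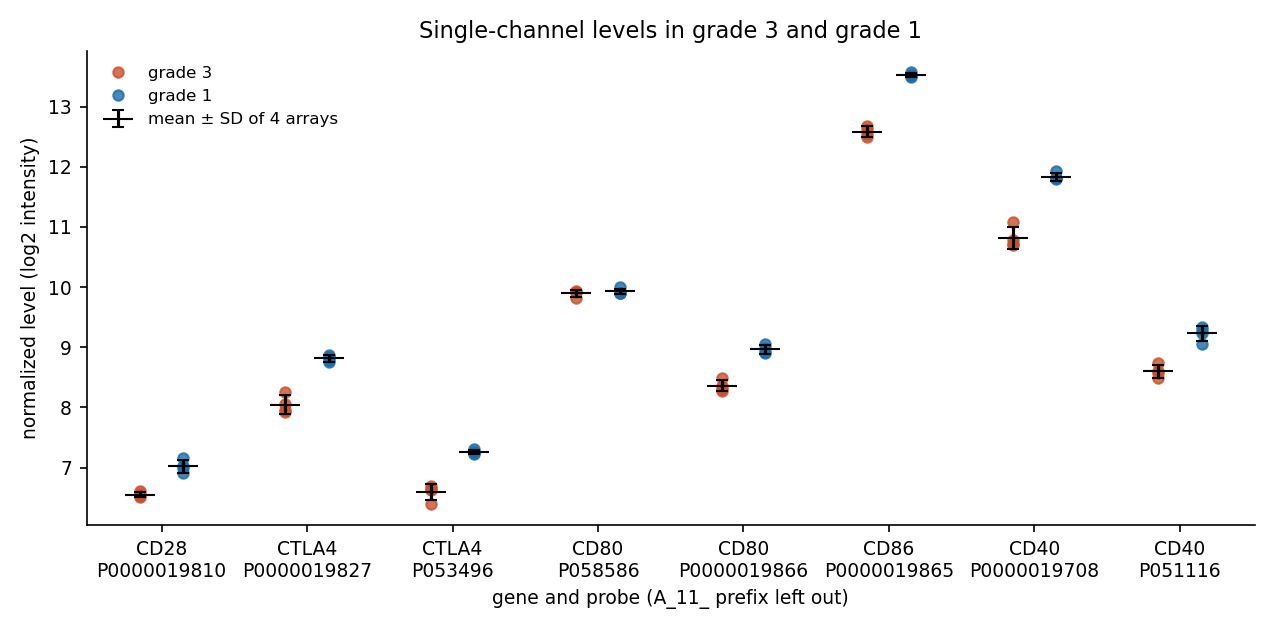
Normalized single-channel level (log2 intensity, vertical axis) of each probe on 4 arrays, grade 3 to the left of grade 1, with mean ± SD in black. Grade 3 and grade 1 points do not overlap for 7 probes and overlap for CD80 probe A_11_P058586. Heights of different probes are not comparable. These levels are not scaled to spike-in controls, which raises grade 3 in relation to grade 1 and puts 4 of the 7 probes above 0, uncalled.

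CD80 and CD86 are the B7 ligands that CD28 and CTLA4 share. CD86 was measured far above background, with raw signal 197 to 230 times background in grade 3 and 229 to 343 times in grade 1. Its probe A_11_P0000019865 gave ratios of −1.0 and −0.81 with grade 3 in Cy5, and −1.02 and −0.94 with grade 1 in Cy5. Levels were 12.54, 12.68, 12.49 and 12.63 in grade 3, against 13.53, 13.49, 13.51 and 13.57 in grade 1. All grade 3 levels were lower, and the 4 arrays lay close together within each grade. The fitted value was −0.94 ± 0.05 (SE), with a 95% interval from −1.06 to −0.82 and a limma adjusted p of 3.02e-07.

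CD80 was read differently by its probes. Probe A_11_P058586, the brighter, gave ratios of 0.04 and −0.10 with grade 3 in Cy5, and 0.01 and −0.08 with grade 1 in Cy5. Its levels were 9.94, 9.81, 9.91 and 9.91 in grade 3, against 9.90, 9.91, 9.91 and 10.0 in grade 1, and the grades overlapped. The fitted value was −0.03 ± 0.05 (SE), with a 95% interval from −0.14 to 0.08 and a limma adjusted p of 0.587. The interval did not reach the interval of CD86, which ended at −0.82. Probe A_11_P0000019866 gave ratios of −0.62, −0.42, −0.64 and −0.75. Its levels were 8.37, 8.48, 8.28 and 8.31 in grade 3, against 8.99, 8.90, 8.92 and 9.06 in grade 1, without overlap. The fitted value was −0.61 ± 0.05 (SE), a 1.52-fold fall, with a limma adjusted p of 7.06e-06.

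The first CD80 probe lay above the second on all 4 arrays, by 0.57 ± 0.17 (SD) in log2 ratio (exact permutation test, p = 0.125, adjusted 0.1875). Raw signals of both were well above background, at 23.0 to 36.8 times in grade 3 and 19.8 to 24.1 times in grade 1 for the first, and at 8.23 to 12.1 times in grade 3 and 10.2 to 12.6 times in grade 1 for the second. Both carry the same transcript accession, and which parts of the transcript they read was not analysed here. Averaging the probes gave CD80 a log2 fold change of −0.32 (limma adjusted p 0.000249). With scaling to spike-in controls the brighter probe was called higher at 0.63 (limma adjusted p 6.91e-10). The call for this gene thus rests on how its probes are combined and on the scaling.

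Of the 8 probes, 7 had all grade 3 levels below all grade 1 levels, against 21.3% of all tested probes. No spot of the 8 probes had a local background marked as an outlier, and each probe was printed once per array. The 7 called probes remained called when any 1 of the 4 arrays was left out.

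The 5 genes kept 1 order of ratios between the brightest probes on every array. Of 10 pairs formed from the brightest probes, each had a difference in log2 ratio with 1 sign on all 4 arrays. For every pair the exact permutation test gave p = 0.125, also after adjustment over the pairs, so no pair could pass a threshold of 0.05 in this design. CD40 and CD86 lay closest, with CD86 minus CD40 at 0.08 ± 0.06 (SD). CTLA4 minus CD86 was 0.17 ± 0.05, CTLA4 minus CD40 was 0.25 ± 0.04, and CD28 minus CTLA4 was 0.30 ± 0.17. CD80, by its brighter probe, lay above CD86 by 0.91 ± 0.16 and above CD40 by 0.98 ± 0.16.

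The order among the other 4 genes changed with the background treatment. With the signals as Feature Extraction had processed them, CD28 had a log2 fold change of −1.04, CTLA4 −0.98, CD86 −0.95 and CD40 −1.03. CD28 minus CD86 was then −0.09 and CD28 minus CD40 −0.01. CD28 was thus 2.06-fold lower in grade 3 with processed signals and 1.39-fold lower with the offset of 50 units, and 1.61-fold lower with an offset of 16. The second CTLA4 probe, also dim at 2.25 to 2.97 times background in grade 3 and 3.13 to 3.52 times in grade 1, fell by 1.51 on the log2 scale with processed signals. CD40 and CD86, which were bright, moved little: CD40 stayed at −1.03 and CD86 at −0.95 with the offset of 16.

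The calls also depended on how outlier backgrounds elsewhere on the arrays were treated. Leaving the marked local backgrounds as measured ended the calls of 5 probes in limma: CD28 (−0.22, adjusted p 0.145), both CTLA4 probes (−0.51, adjusted p 0.0632, and −0.36, adjusted p 0.132), the second CD80 probe (−0.43, adjusted p 0.0612) and the second CD40 probe (−0.42, adjusted p 0.0621). With it 12.5% of all tested probes were called lower. CD86 and the brighter CD40 probe kept their calls under every alternative run, with log2 fold changes between −0.99 and −0.27 for CD86 and between −1.06 and −0.35 for CD40.

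The choice of scaling moved all genes. Scaling to spike-in controls shifted the median log2 fold change of all tested probes to 0.67, with 97.2% of called probes higher in grade 3, against 50.5% as reported. Under it CD40 was at −0.35, CD86 at −0.27, CTLA4 at −0.10 and CD28 at 0.19, with CTLA4 and CD28 uncalled. The brighter CD80 probe was called higher at 0.63 (limma adjusted p 6.91e-10). This scaling shifts every probe of an array by the same amount. That all 8 probes lay below the median before and after it was therefore fixed in advance. Median centring in place of loess put 63.9% of called probes higher in grade 3 and the median at 0.08. The 7 probes kept their calls there, and the brighter CD80 probe was called higher at 0.17 (limma adjusted p 0.0204).

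**Figure D3:**
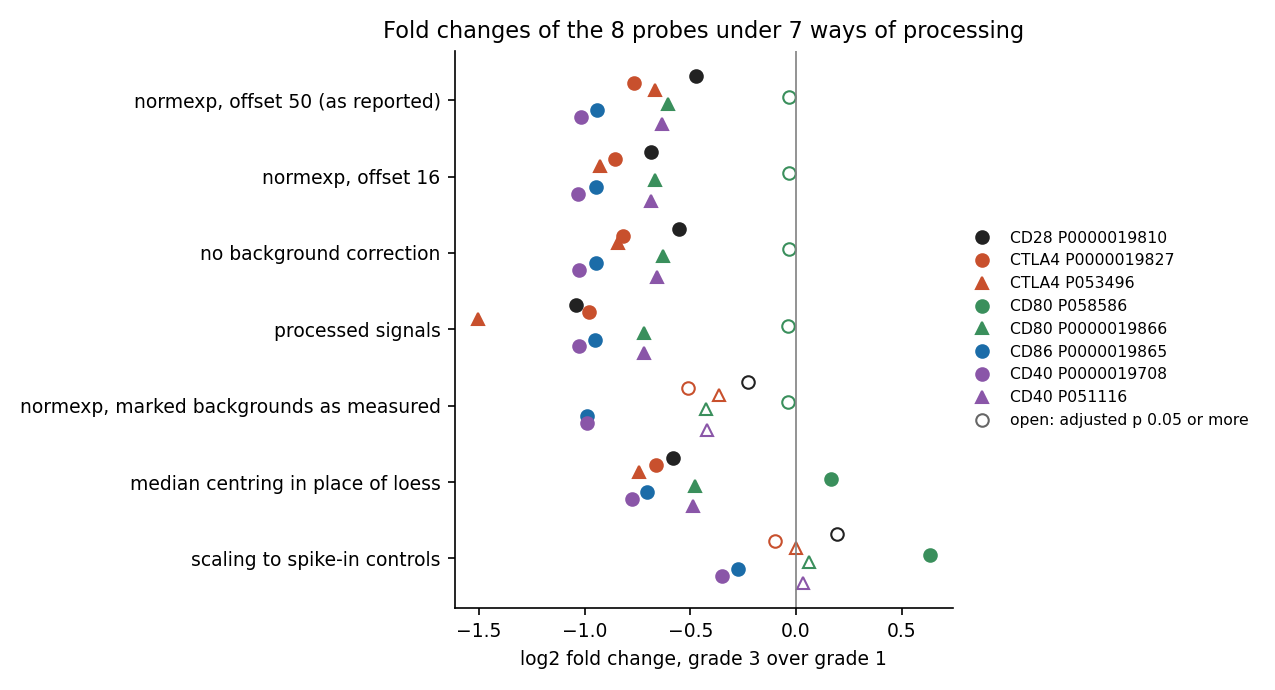
Log2 fold change of grade 3 over grade 1 (horizontal axis) for each of the 8 probes under 7 ways of processing, with open symbols where the limma adjusted p is 0.05 or more. CD40 probe A_11_P0000019708 and CD86 stay filled and below 0 in every row, CD28 ranges from −1.04 with processed signals to 0.19 with spike-in scaling, and 4 of the 7 called probes pass above 0 with spike-in scaling.

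Other genes of the pathway were described from 4 lists, chosen with earlier results of these data known. Of 110 listed genes, 31 had a named and tested probe. Of these, 20 were called lower in grade 3, 1 was called higher and 10 were not called, with a median log2 fold change of −0.20. ICOS and IFNG, both among the 20, passed the filter for testing through grade 1 alone. With both grades required well above background on every array, 18 genes were called lower and 1 higher. Of all 925 named genes tested, 46.1% were called lower and 70.2% were called in either direction. The share of these lists called in either direction was near that of named genes. By direction, 20 of 31 were lower, against 46.1%, and 1 of 31 higher, against 223 of 925. Without the dye term 14 genes were called lower and 1 higher. TNFRSF18, CD40LG, IL2RA, IL17A, IL5 and PRF1 then lost their calls (limma adjusted p 0.0502 to 0.101). With scaling to spike-in controls, 16 of the 20 lay above 0. With marked backgrounds as measured, 5 genes were called lower (LGALS9, CEACAM1, BIRC3, IL10 and NFKB1) and 0 higher. The named genes of the array had a median log2 fold change of −0.09.

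Among other costimulation and checkpoint genes, 6 of 7 tested were lower in grade 3, 0 higher, with a median of −0.42, against 46.1% lower among all named genes. That median is the value of ICOS, which passed the filter for testing through grade 1 alone. With both grades required well above background on every array, 5 of 6 were lower, with a median of −0.48. With marked backgrounds as measured 2 of the 7, LGALS9 and CEACAM1, were called. LGALS9, which encodes galectin-9, a ligand of the checkpoint receptor HAVCR2, was 2.18-fold lower (−1.12 ± 0.05, SE, limma adjusted p 6.08e-08), with ratios from −1.43 to −0.84. CEACAM1, an adhesion molecule that inhibits T cells, was 1.94-fold lower (−0.95 ± 0.05, limma adjusted p 1.54e-07). Each of these genes had a second probe that was also lower, at −1.06 for LGALS9 and −1.19 for CEACAM1. SLAMF1, a self-binding receptor of lymphocytes, was 1.66-fold lower (limma adjusted p 1.55e-06). These 3 stayed below 0 with spike-in scaling, and the other 3 called genes of the list did not.

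ICOS, a CD28 relative induced on activated T cells, was not well above background in grade 3 on any array and was measured on all 4 in grade 1. The fit put it 1.34-fold lower in grade 3 (limma adjusted p 3.78e-05), with mean levels of 6.19 in grade 3 and 6.61 in grade 1. This fold is a lower bound for this background treatment and scaling only. ICOS was 1.15-fold lower with marked backgrounds as measured (limma adjusted p 0.166) and 3.5-fold lower with processed signals. With spike-in scaling it was 1.19-fold higher (limma adjusted p 0.0152). TNFRSF18, the receptor GITR, was 1.17-fold lower (limma adjusted p 0.00197). CD40LG, the ligand of CD40, was 1.14-fold lower (−0.19 ± 0.06, limma adjusted p 0.017), and its second probe was not called at −0.06. CD47, which signals to macrophages not to engulf a cell, was at −0.10 ± 0.05 (limma adjusted p 0.113).

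In the genome annotation CD28, CTLA4 and ICOS are neighbours in that order, with 0 protein-coding genes between them. All 3 were called lower here, though ICOS was not well above background in grade 3. CD80 and CD86 lie on another chromosome with 23 protein-coding genes between them, and CD40 is on neither of these chromosomes. Position was not tested against the fold changes.

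The T cell receptor list had 3 tested genes of 26. Among the coreceptors, CD8A was 1.28-fold lower in grade 3 (limma adjusted p 0.000272) and CD4 1.13-fold lower (limma adjusted p 0.009). A second CD8A probe was also lower, at −0.66. PPP2CA, a phosphatase subunit, was at −0.001 ± 0.05. With marked backgrounds as measured none of the 3 was called (limma adjusted p 0.256 for CD4 and 0.104 for CD8A). The CD3 chains and the kinases next to the receptor were not analysed here.

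Of the CD40 and NF-kB list, 4 of 6 tested genes were lower in grade 3, 0 higher, with a median of −0.24. The share called in either direction was near the 70.2% of all named genes, of which 46.1% were lower. With marked backgrounds as measured 2 of the 6 were called lower. BIRC3, a ubiquitin ligase of the receptor complex and itself a known NF-kB target, was 1.90-fold lower (−0.92 ± 0.05, limma adjusted p 1.91e-07), and its dimmer probe was lower at −0.20. MAPK14, the p38 kinase, was 1.30-fold lower, NFKB1, a subunit of NF-kB, 1.21-fold lower, and BCL2L1, a survival gene, 1.16-fold lower. BIRC2, a close relative of BIRC3, was at 0.02 ± 0.05, and TRAF5, an adaptor of CD40, at 0.09 ± 0.05. With spike-in scaling BIRC3 alone of the 4 lower genes stayed below 0.

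Of the cytokines, their receptors and effectors, 15 of 21 listed genes were tested, with 8 lower, 1 higher and 6 not called in grade 3. These shares were near those of all named genes, 46.1% lower and 70.2% called, and with marked backgrounds as measured only IL10 was called. IL4 and IL10, cytokines that favour antibody responses and restraint, were 1.40-fold and 1.39-fold lower (limma adjusted p 2.51e-05 and 3.23e-05). The IL10 ratios were wide, from −0.84 to −0.11 over the 4 arrays, and without the dye term its limma adjusted p was 0.0227. IFNG, a cytokine made by T cells, was called lower, but in grade 3 only 1 array had it well above background, against 4 in grade 1. It was 1.26-fold lower as reported, 1.12-fold with marked backgrounds as measured (limma adjusted p 0.193) and 4.0-fold with processed signals, so its size is not settled. IL12A was 1.16-fold lower, IL2RA and IL17A 1.15-fold lower each, IL5 1.13-fold lower and PRF1 1.10-fold lower. All 8 lay above 0 with spike-in scaling. IL2RG, the receptor chain shared by several interleukins, was 1.55-fold higher in grade 3 (0.63 ± 0.07, limma adjusted p 3.39e-05), with ratios from 0.40 to 0.85. IL2, IL13, IL12B, IL15, FOXP3 and TNF were not called with their brightest probe, though a second IL2 probe was lower at −0.30. FOXP3 was well above background in grade 3 on only 1 array. It was called lower with processed signals (−0.82, limma adjusted p 0.0264) and median centring (−0.31, limma adjusted p 0.00123). With spike-in scaling it lay at 0.57, so its change is not settled.

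**Figure D4:**
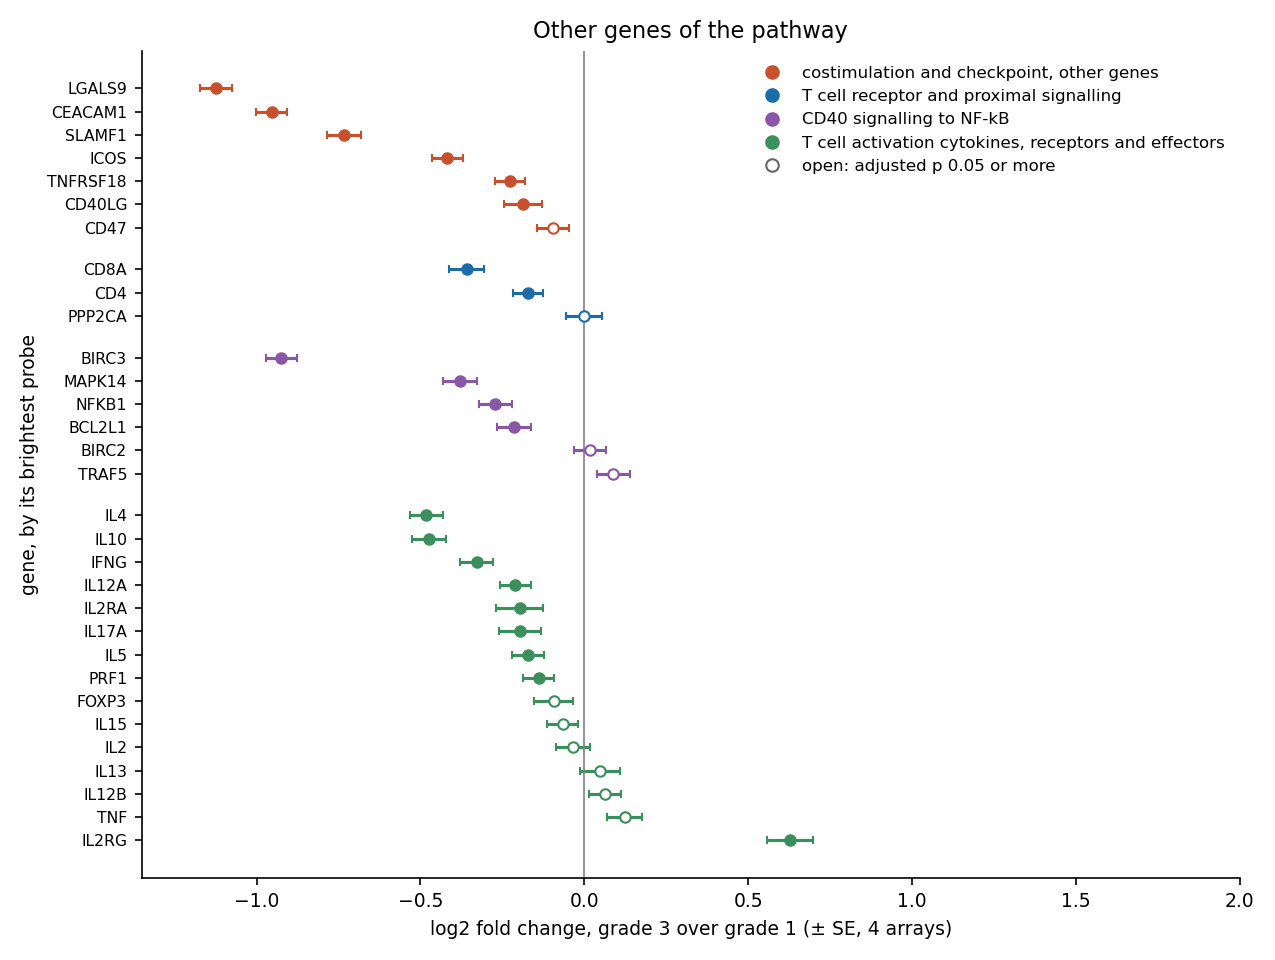
Log2 fold change of grade 3 over grade 1 ± SE over 4 arrays (horizontal axis) for the 31 other pathway genes that were tested, coloured by list, with open symbols where the limma adjusted p is 0.05 or more. Filled symbols left of 0 number 20 and right of 0 number 1, IL2RG; with spike-in scaling 16 of the 20 lie above 0.

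Markers of immune cells were mostly lower in grade 3 as well, although with spike-in scaling the median log2 fold change lay above 0 for T cell and dendritic cell markers, at 0.40 and 0.20. With marked backgrounds as measured, the markers called lower were 0 of 2 for T cells, 0 of 2 for NK cells, 1 of 2 for B cells, 1 of 3 for dendritic cells and 2 of 3 for monocytes and macrophages. Among all named genes 46.1% were lower. Both tested T cell markers of 12, CD8A and CD4, were lower in grade 3. They are the same probes already counted in the T cell receptor list. The summed level of both was 437 to 469 intensity units in grade 3, against 526 to 577 in grade 1. Of 14 monocyte and macrophage markers 3 were tested and 3 were lower, with sums of 6076 to 7059 in grade 3 and 14480 to 16340 in grade 1. FCGR1A, an Fc receptor, was 2.59-fold lower, and CD163, a scavenger receptor of macrophages, 2.21-fold lower. Both tested B cell markers of 8 were lower, with sums of 1577 to 1828 in grade 3 and 2357 to 2705 in grade 1. CD38, an ectoenzyme of lymphocytes, was 1.39-fold lower and MS4A1, which encodes CD20, 2.92-fold lower. All such sums follow the brightest probes of a list: mean grade 3 levels were 10.58 for CD38 and 6.89 for MS4A1. Of 12 dendritic cell markers 3 were tested and 2 were lower, with sums of 1012 to 1373 in grade 3 and 1746 to 1999 in grade 1. CD209, a lectin of dendritic cells, was 1.73-fold lower, while CD1C, which presents lipid antigens, was at 0.10 ± 0.06 (SE) and below 0 on 1 of 4 arrays (limma adjusted p 0.164). Both tested NK cell markers of 8 were lower, with sums of 423 to 464 in grade 3 and 670 to 759 in grade 1. Of these, KLRA1 was 1.18-fold and KLRD1 2.65-fold lower. Median log2 fold changes were −0.27 for T cell, −1.14 for monocyte and macrophage, −1.01 for B cell, −0.47 for dendritic cell and −0.82 for NK cell markers.

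The other cell types gave a mixed picture. Of 10 epithelial markers 2 were tested: MUC1, a mucin of glandular epithelium, was 2.27-fold higher in grade 3, and CLDN3 was at 0.11 ± 0.05. Their sums were 5124 to 6550 in grade 3 and 4632 to 5244 in grade 1. Of 8 fibroblast markers 4 were tested and 3 were lower, with sums of 306000 to 398400 in grade 3 and 477100 to 547300 in grade 1, and their median of −0.44 became 0.22 with spike-in scaling. COL1A2, a collagen chain, was 1.46-fold lower, with wide ratios from −1.28 to 0.32 and 3 of 4 arrays below 0. DCN, the proteoglycan decorin, was 1.27-fold lower. Without the dye term 2 of the 4 fibroblast markers were called lower. Of 7 endothelial markers 3 were tested, 2 lower and 1 higher, with sums of 35780 to 43280 in grade 3 and 44630 to 53100 in grade 1, and their median of −0.30 became 0.37 with spike-in scaling. KDR, a receptor of endothelial growth factor, was 1.53-fold lower, and VWF, the clotting factor of endothelium, 1.23-fold lower. All tested markers of these lists were measured in both grades on all 4 arrays. The part of the cell makeup in the values of CD28, CTLA4, CD40, CD80 and CD86 was not tested.

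The genes with array patterns most like each of the 5 were found by Euclidean distance between the 4 log2 ratios, over 919 named genes with a ratio on all 4 arrays. A distance of 0 would be the same ratio on every array. PLN, a regulator of the calcium pump of muscle cells, lay at 0.187 from CTLA4. PDE5A, which breaks down cyclic GMP, was nearest to CD86 at 0.0652 with a log2 fold change of −0.96, followed by DLA-DQB1 at 0.145. DLA-DQB1, a chain of dog MHC class II, was also nearest to CD40 at 0.113, with a log2 fold change of −0.98, followed by the chemokine CCL20 at 0.123. RHCG and SGK3 were nearest to CD28 at 0.0979 and 0.118, and NOS3 and CNTNAP5 to the brighter CD80 probe at 0.0828 and 0.0867. The median distance of all named genes was 0.64 from CD80 and 0.966 to 1.91 from the other genes. With 4 ratios, which share arrays and background treatment, these distances describe the libraries at hand and carry no test.

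Signal over background stands for depth on an array. In Cy5 the median spot had 289 to 402 units over a background of 39 to 41, and in Cy3 215 to 354.5 units over 28 to 32. Ratios of all tested probes correlated between arrays at 0.913 and 0.943 within a dye orientation and at 0.693 to 0.841 between orientations (Pearson's r across probes, which are not independent replicates). All of these correlations were above 0 once ratios were turned to grade 3 over grade 1. The number of arrays limits the precision.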

How the data were processed

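The submitters' processing notes name Agilent Feature Extraction, version 10.7.3.1. Median signals, local backgrounds and processed signals were deposited as linear intensity. LogRatio and the series' value table hold log10 ratios that the authors deposited, computed from processed signals per the file headers, and differed by at most 4.99e-06 after the sign of swapped arrays was turned. Directions follow the dyes in the labels.

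In R 4.3.3 with limma 3.58.1, the background was corrected by normexp (offset 50), arrays were normalized by loess, and levels by Aquantile. Local backgrounds marked as outliers (151 to 2352 per array and channel) took the array's median for that channel instead, a treatment taken over from earlier work on these data, with its results known. Between 11 and 39 outlier spots per array were left out and none was saturated. Tests covered the 35411 of 43603 probes that 1 grade or both showed well above background on every array. The fit held a grade and a dye term, with eBayes, two-sided, Benjamini-Hochberg adjustment and a threshold of 0.05. It was tested on simulated data.

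Probe names came from RefSeq accessions listed for the assembly UU_Cfam_GSD_1.0. Of the 43603 probes 1648 were named, 1431 of them tested. The array design predates that build, so no coordinates are given. The brightest probe stood for its gene. The text names every probe of the 5 genes, up to 8 called genes per pathway list, the 2 brightest markers per cell type and the 2 nearest genes, of which 1 is not reported here. Genes beyond that rule were named after their values were seen. The members and lists were chosen with earlier results of these data known. A gene measured in 1 grade only has a bound, the bright grade's mean over the higher of the dim probe's own signal and the lowest measured signal.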

Additional observations from a re-analysis of the deposited data

Results flagged for a closer look

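The 4 log2 ratios of 62 probes and genes named here were searched for an array far from the other 3, and 3 had one. Chance alone gives such a gap in about 1 of 20. In all 3 the array apart was replicate 2 with grade 3 in Cy5. The gap divided by the range was 0.907 for CTLA4 probe A_11_P0000019827, with a ratio of −0.57 there, against −0.84, −0.84 and −0.82 on the others. It was 0.932 for CD47, with −0.19, against −0.06, −0.06 and −0.07. It was 0.979 for IL12A, with −0.14, against −0.23 on each of the others. CTLA4 was at −0.83 without that array.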

How the results depend on the processing

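CD86 and CD40 (brighter probe) kept direction and call under every alternative. With marked backgrounds as measured, CD28 was at −0.22 and CTLA4 at −0.51, uncalled; 2328 probes were higher and 4418 lower, pathway genes 0 higher and 5 lower, and CD86 minus CD40 −0.0027. With spike-in scaling CD28 was at 0.19, CTLA4 at −0.10, and second probes of CTLA4, CD80 and CD40 at 0.0019, 0.062 and 0.035, all uncalled. The brighter CD80 probe was called higher there at 0.63. In that setting 32259 probes were higher and 917 lower, and pathway genes 25 higher and 3 lower. Median centring put the brighter CD80 probe at 0.17 and 5 pathway genes higher; without background correction 2 were higher. The mean of both CD80 probes was −0.32. Without the dye term 7951 probes were higher and 7783 lower, pathway genes 1 higher and 14 lower, and no member's call changed. With processed signals or the value table, CD28 minus CTLA4 was −0.061, CD28 minus CD86 −0.087, CD28 minus CD40 −0.014 and CTLA4 minus CD86 −0.026. The cause was not tested.

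Leaving out 1 array gave −0.066 to 0.00030 for the brighter CD80 probe, 1 to 2 pathway genes higher (2 without replicate 2 with grade 1 in Cy5) and 16 to 19 lower. Same-numbered arrays deviated with a correlation of −0.09 and share only a number. A replicate block gave 10922 probes higher and 10640 lower as a fixed term, and 11620 and 11272 with same-numbered arrays averaged, and changed no member's call. Signal over background limits CD28 and the second CTLA4 probe.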
